A study of Mus musculus with 20 samples.

Results

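Translation initiation factors were taken as the genes whose symbols begin with Eif1 to Eif6, apart from Eif2s3x and Eif2s3y, and 53 of the 23992 gene symbols in the files met this definition. Polyadenylated RNA was sequenced from mouse regulatory T cells (Tregs) and from CD8+ T cells, either left unstimulated or exposed for 90 min or 4 hr to IL-2 at 200 nM or to the same dose of IL-2-REH. The unstimulated libraries are labelled 0 hr, and no library without cytokine is given for 90 min or 4 hr. In comparisons with unstimulated cells, the cytokine and the time in culture therefore cannot be told apart. IL-2-REH is a partial agonist, an IL-2 carrying substitutions that weaken its contact with the common gamma chain of the receptor, and the IL-2 proteins carried a mouse serum albumin tag. Tregs were sorted by GFP from spleen and lymph nodes of B6-Foxp3EGFP mice, with 3 libraries, numbered 1 to 3, in each of 5 groups. CD8+ T cells had 1 library per group, so their differences had no replicate check. The growth protocol names C57BL/6J mice for CD8+ T cells, but the strain label of the samples reads C57BL/6N. Ages, and whether animals were pooled, are not given in the sources used here. Nothing in the labels says that same-group libraries came from separate animals, so p-values measure only the spread between these libraries.

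Eukaryotic initiation begins when eIF2, carrying the initiator tRNA and GTP, joins the small ribosomal subunit together with eIF1, eIF1A, eIF3 and eIF5. The cap-binding complex eIF4F, made of eIF4E, the scaffold eIF4G and the RNA helicase eIF4A, brings this ribosomal complex to the mRNA, and 4E-binding proteins hold eIF4E back until mTORC1 phosphorylates them. eIF2B recharges eIF2 with GTP, and kinases that phosphorylate the alpha subunit of eIF2 slow that step during stress. T cells are known for raising protein synthesis when they are activated, and IL-2 is among the signals that sustain it.

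Reads on genes ranged from 20201392 to 63903764 in the Treg libraries and from 38201667 to 45189835 in the CD8+ libraries. Foxp3 ranged from 65.2 to 252 RPKM in Tregs and from 0.482 to 0.999 RPKM in CD8+ T cells, and Cd8a ranged from 0.0879 to 1.84 RPKM in Tregs and from 103 to 256 RPKM in CD8+ T cells, so the defining markers followed the labels. The summed RPKM of 3 macrophage markers ranged from 12.02 to 46.7 in unstimulated Tregs and from 5.59 to 21.4 in Tregs given IL-2 for 4 hr. Whether such cells had a part in any result was not tested. Replicate 1 of unstimulated Tregs and replicate 3 of Tregs given IL-2 for 4 hr stood apart from the other libraries of their groups, with mean correlations to their group of 0.906 and 0.918, and the latter had the fewest reads. The main results that turn on these libraries are given with and without them. In such RNA from many cells, fewer cells of a type and less RNA per cell cannot be told apart.

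The 53 genes together held between 0.891% and 1.13% of the summed RPKM of a library. RPKM, reads per kilobase of exon scaled to the mapped reads of the library, allows levels of different genes to be compared. The highest mean level over the 15 Treg libraries was that of Eif1, a start codon factor, with 418 RPKM, followed by Eif5a with 250.2, the helicase gene Eif4a1 with 219, and the eIF3 subunit genes Eif3h and Eif3f with 168 and 164.7 RPKM. The eIF3 complex was expressed at a median level of 72.2 RPKM over its 14 genes, whereas the 5 eIF2B genes had a median of 12.2 RPKM and the 4 kinase genes one of 9.90 RPKM. The lowest was Eif4e1b, an eIF4E relative best known from germ cells, with a mean of 0.0773 RPKM and at most 17 reads in any library, so that no change of it can be read. The remaining 52 genes had a mean of at least 1 RPKM.

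**Figure D1:**
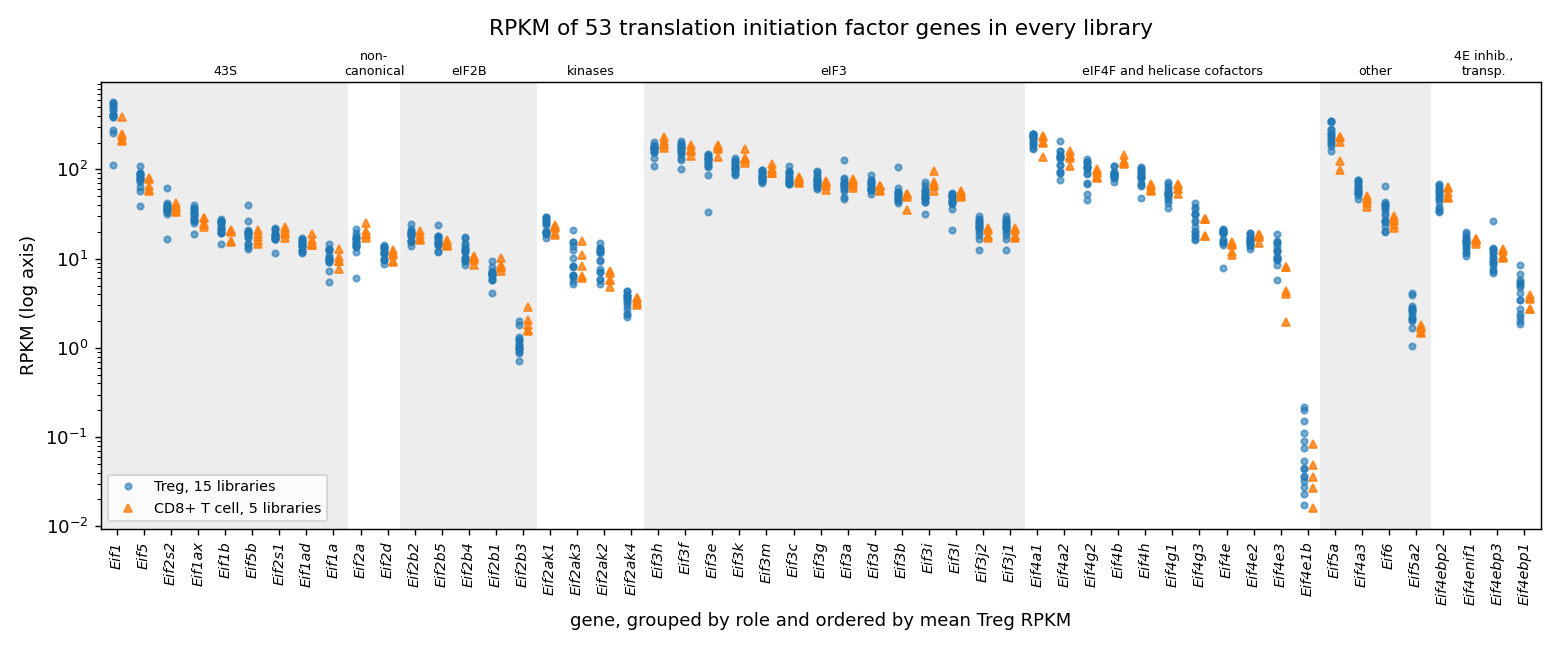
RPKM on a log axis of each of the 53 genes, grouped by role and ordered within each role by the mean over Tregs; circles are the 15 Treg libraries and triangles the 5 CD8+ libraries. Eif1, Eif5a and Eif4a1 have means of 418, 250.2 and 219 RPKM in Tregs, Eif4e1b lies near 0, and Treg and CD8+ values overlap for every gene with a mean of at least 1 RPKM except Eif4b.

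Genes varied unequally among the 15 Treg libraries. The coefficient of variation was lowest for the eIF3 subunit gene Eif3m, with 10.3%, and for Eif4b, with 11.2%. It was highest, Eif4e1b aside, for the kinase gene Eif2ak3 with 46.9%, the inhibitor genes Eif4ebp1 and Eif4ebp3 with 45.2% and 42.6%, and Eif5b with 34.2%. Part of this spread followed the replicate number. Eif4g3, a scaffold relative of Eif4g1, was lowest in replicate 1 in all 5 Treg groups, with 16.2 to 22.8 RPKM there and 19.7 to 42.3 RPKM in replicates 2 and 3, and Eif4ebp2 was lowest in replicate 3 in all 5 groups, with 33.04 to 47.1 RPKM.

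Eif5a was the only gene of the 53 that passed an adjusted p-value of 0.05 in any comparison of Treg groups in the unpaired fit, edgeR's quasi-likelihood test on read counts with all genes tested. It rose after IL-2 for 4 hr, a comparison in which 2.27% of all tested genes were called and 1.17% were called higher. In the same fit no initiation factor gene was called after IL-2 for 90 min (all genes 0.853%), after IL-2-REH for 90 min (0.0933%) or 4 hr (0.313%), between the cytokines at 90 min (0.0133%) or 4 hr (0.0267%), between 4 hr and 90 min with either cytokine, or for the change of the cytokine difference between time points (0% each). The fit that pairs libraries by replicate number changed both statements, calling Eif5a after IL-2 for 90 min (1.83% of all genes) and Eif5a and Eif3i after IL-2 for 4 hr (6.92%).

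At an unadjusted p-value under 0.05, 11 of the 53 genes passed for IL-2 at 4 hr, where 17.7% of all genes did. The counts were 3 for IL-2 at 90 min (13.8%), 3 and 4 for IL-2-REH at 90 min and 4 hr (11.4% and 13.3%), 1 and 3 between the cytokines at 90 min and 4 hr (0.993% and 3.72%), 14 for IL-2 and 4 for IL-2-REH between the times (17% and 14.6%), and 0 for the change of the cytokine difference. DESeq2, at an adjusted p-value of 0.05, called 4 for IL-2 at 4 hr (6.88% of all genes with an adjusted p), 1 for IL-2 at 90 min (4.39%), and 5 for IL-2 and 1 for IL-2-REH between the times (3.1% and 1.99%). It called 0 for IL-2-REH at 90 min (0.872%) and 4 hr (4.32%), and 0 between the cytokines at 90 min (0.0699%) and 4 hr (0.403%).

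Genes were also placed by whether the 3 RPKM values of one group lay wholly above or below those of the other, among the 52 genes with at least 1 RPKM. After IL-2 for 90 min 7 lay higher (Eif1a, Eif2s2, Eif4a1, Eif4e3, Eif5, Eif5a and Eif5b) and 2 lower (Eif3i and Eif3m), beside 9.18% and 4.5% of all genes. After IL-2-REH for 90 min 4 lay higher (Eif4a1, Eif4e, Eif5a and Eif5b) and 0 lower, beside 7.31% and 3.26%. With IL-2 the list at 4 hr turned mostly to lower values, with 3 higher (Eif3c, Eif5a and Eif6) and 8 lower (Eif1, Eif2a, Eif3e, Eif3h, Eif3i, Eif3k, Eif3m and Eif4g2), beside 6.27% and 9.15%. After IL-2-REH for 4 hr 9 lay higher (Eif1ad, Eif2b4, Eif2s2, Eif3c, Eif3d, Eif3g, Eif4e2, Eif4ebp1 and Eif6) and 5 lower (Eif2a, Eif3e, Eif3i, Eif3m and Eif4g2), beside 8.66% and 6.12%.

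These splits moved with the scaling. On counts scaled by TMM, edgeR's adjustment for composition, the 4 comparisons had 6 higher and 0 lower (all genes 10.2% and 5.53%), 7 and 1 (7.85% and 4.14%), 3 and 9 (8.87% and 10.9%), and 2 and 6 (8.44% and 9.22%) in the same order. On both scales Eif1a, Eif4e3 and Eif5a lay higher after IL-2 for 90 min, and Eif5a and Eif5b after IL-2-REH for 90 min. At 4 hr Eif3c, Eif5a and Eif6 lay higher and Eif2a, Eif3e, Eif3h, Eif3i, Eif3k, Eif3m and Eif4g2 lower after IL-2 on both scales, and Eif3c and Eif4ebp1 lay higher and Eif2a, Eif3e, Eif3i and Eif4g2 lower after IL-2-REH.

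eIF5A, the product of Eif5a, is named as an initiation factor but is known chiefly for helping the ribosome form difficult peptide bonds in elongation and termination, and it is the only protein known to carry hypusine. In unstimulated Tregs, Eif5a measured 161.2, 215 and 183 RPKM in replicates 1 to 3. After IL-2 it measured 279, 352 and 284 RPKM at 90 min and 337, 349 and 252 RPKM at 4 hr. After IL-2-REH it measured 229, 240.5 and 218 RPKM at 90 min and 257, 202 and 193 RPKM at 4 hr. All libraries given IL-2 lay above all unstimulated libraries at both times, the IL-2-REH libraries at 90 min lay above them by a narrow margin, and those at 4 hr overlapped them.

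The means ± standard deviation (n = 3) were 186 ± 26.8 RPKM without cytokine, 305 ± 40.5 and 313 ± 52.7 RPKM after IL-2 at 90 min and 4 hr, and 229 ± 11.1 and 218 ± 34.9 RPKM after IL-2-REH. Eif5a was higher after IL-2 for 4 hr than in unstimulated Tregs by a log2 fold change of 0.82 (SE 0.20, adjusted p = 0.0451, 1.76-fold), and in 3 of 3 same-numbered pairs. The value at 90 min was 0.87 (SE 0.20), with an adjusted p of 0.0590, and it passed, at 0.0487, in the paired fit. IL-2-REH gave 0.45 (SE 0.20, adjusted p = 0.418) at 90 min and 0.24 (SE 0.20, adjusted p = 0.648) at 4 hr. The call at 4 hr lasted without unstimulated replicate 1 (adjusted p = 0.0406), where 8.87% of all genes were called. It was lost without unstimulated replicate 2 or 3 (0.147 and 0.138) and without IL-2 replicate 1, 2 or 3 (0.110, 0.112 and 0.0651). The log2 fold change stayed between 0.74 and 0.90. Its exons lie on chromosome 11 in a gene at 69916712 to 69921958 (mm10, reverse strand) that overlaps Gps2, and since the sources do not say whether counting used the strand, reads in the overlap are uncertain.

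**Figure D2:**
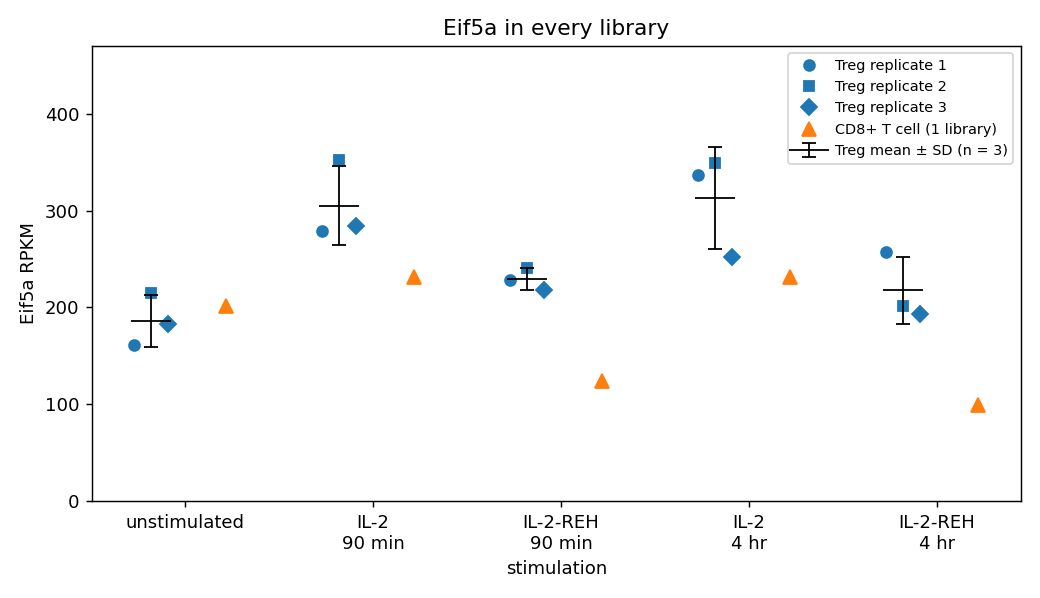
Eif5a RPKM in every library by stimulation; blue symbols are the 3 Treg replicates, black bars their mean ± standard deviation (n = 3), and triangles the single CD8+ libraries. Tregs given IL-2 lie between 252 and 352 RPKM, above the unstimulated 161.2 to 215, and the CD8+ libraries given IL-2-REH are the lowest, with 124 and 99.2 RPKM.

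eIF5A2, the product of a second gene, was a minor part of the pair. Eif5a held between 98.2% and 99.6% of the summed Eif5a and Eif5a2 RPKM in every library. Of the enzymes that make hypusine on eIF5A, Dhps had a log2 fold change of 0.32 (SE 0.20) and Dohh one of 0.56 (SE 0.29) after IL-2 for 4 hr, with adjusted p-values of 0.438 and 0.323.

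Promoter windows are shown for Eif5a, the only gene called in the unpaired fit, and for the helicase pair Eif4a1 and Eif4a2. Neither helicase gene was called in the unpaired or the paired fit. The printed windows differ in a short motif, and whether the motif bears on any level or change was not tested. Each runs from 250 bases before to 50 bases after an annotated RefSeq start (GRCm38.p6, the build of mm10), 5′ to 3′ on the strand of the gene. Capitals mark CACGTG, the E-box bound by Myc and related factors, which reads the same on both strands.
Eif5a, start of the transcript counted, chr11:69921909-69922208: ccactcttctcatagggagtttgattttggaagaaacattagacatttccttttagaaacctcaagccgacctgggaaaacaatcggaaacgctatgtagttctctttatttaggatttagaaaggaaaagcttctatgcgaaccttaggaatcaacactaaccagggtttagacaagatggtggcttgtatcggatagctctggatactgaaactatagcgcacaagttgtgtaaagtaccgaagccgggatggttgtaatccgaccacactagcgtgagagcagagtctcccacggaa
Eif5a, another annotated start, chr11:69921337-69921636: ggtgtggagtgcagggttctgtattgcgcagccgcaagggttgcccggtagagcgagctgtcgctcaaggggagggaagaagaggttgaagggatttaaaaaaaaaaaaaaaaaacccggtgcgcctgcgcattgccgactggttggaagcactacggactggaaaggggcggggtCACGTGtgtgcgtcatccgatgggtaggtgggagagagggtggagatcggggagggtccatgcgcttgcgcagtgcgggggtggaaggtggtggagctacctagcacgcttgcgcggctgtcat
Eif4a1, chr11:69672374-69672673: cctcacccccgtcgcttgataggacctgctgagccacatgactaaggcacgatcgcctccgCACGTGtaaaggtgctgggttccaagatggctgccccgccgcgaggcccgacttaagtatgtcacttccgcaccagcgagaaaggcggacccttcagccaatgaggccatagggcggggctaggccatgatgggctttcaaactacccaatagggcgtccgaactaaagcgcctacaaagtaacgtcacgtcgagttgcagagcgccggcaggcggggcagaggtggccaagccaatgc
Eif4a2, chr16:23107218-23107517: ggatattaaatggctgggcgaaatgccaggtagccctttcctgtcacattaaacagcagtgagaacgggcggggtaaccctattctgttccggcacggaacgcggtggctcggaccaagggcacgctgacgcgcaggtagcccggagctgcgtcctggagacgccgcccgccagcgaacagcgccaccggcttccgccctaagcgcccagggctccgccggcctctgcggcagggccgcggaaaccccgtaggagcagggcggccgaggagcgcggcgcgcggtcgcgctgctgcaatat
The first Eif5a window printed, at the outermost annotated start of the gene, held no CACGTG. Whether the counted transcript begins there, as the label of that window reads, was not tested. The other Eif5a window printed held a CACGTG beginning 74 bases before its start, and that of Eif4a1 held a CACGTG beginning 189 bases before its start. The window of Eif4a2 held none. Eif5a has 6 annotated windows in the table, of which 3 held CACGTG. Of these, the windows beginning at 69921337 and 69921226 overlap and hold the same CACGTG, 74 and 185 bases before their starts.

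Promoter windows were found for 41 of the 53 genes. CACGTG stood in at least 1 window of 10 of them, or 24.4%, against 8.09% of 27025 genes with a window. They were Eif1b, Eif3a, Eif3f, Eif3k, Eif4a1, Eif4e, Eif4g1, Eif4h, Eif5a and Eif5a2. TTCNNNGAA, the spaced palindrome of STAT5 sites, stood in windows of 5 genes, or 12.2%, against 9.55% of all genes, and these were Eif2ak2, Eif2ak3, Eif3c, Eif3g and Eif4e. These matches describe letters in a window and not binding.

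The helicases eIF4A1 and eIF4A2 are close relatives that can both serve in eIF4F. Eif4a1 measured 223, 193 and 208 RPKM in unstimulated Tregs, 226, 251 and 252 after IL-2 for 90 min, and 175, 249.5 and 188 after IL-2 for 4 hr. After IL-2-REH it was at 228, 233 and 248.8 RPKM at 90 min and 170.2, 205 and 235 at 4 hr. In RPKM all libraries given either cytokine for 90 min lay above the unstimulated ones, and at 4 hr the groups overlapped. On TMM-scaled counts the groups overlapped at 90 min too. At 90 min the log2 fold changes were 0.36 for IL-2 and 0.32 for IL-2-REH (SE 0.22 each), with adjusted p-values of 0.486 and 0.587.

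Eif4a2 measured 130.1, 159.2 and 209.6 RPKM in unstimulated Tregs, 112, 144 and 160.2 after IL-2 for 90 min, and 91.6, 136 and 76.5 after IL-2 for 4 hr. The IL-2-REH libraries held 113, 141 and 138 RPKM at 90 min and 96.5, 138 and 90.3 at 4 hr. The groups overlapped, and replicate 3 was the highest of the unstimulated libraries and the lowest under either cytokine at 4 hr. At 4 hr the log2 fold changes were −0.67 (SE 0.27, adjusted p = 0.220) for IL-2 and −0.63 (SE 0.27, adjusted p = 0.332) for IL-2-REH. Eif4a2 overlaps other annotated genes, among them Rfc4, Snora81 and Snord2, and Eif4a1 overlaps Gm25835 among others. Since the sources do not say whether counting used the strand, reads in these overlaps are uncertain, and so are the shares below.

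Expressed as a share of the pair, Eif4a1 held 63.2%, 54.8% and 49.8% of the summed RPKM in unstimulated Tregs and 65.7%, 64.7% and 71.0% after IL-2 for 4 hr. The means were 55.9% ± 6.76 and 67.1% ± 3.42 (SD, n = 3), and these groups did not overlap. The difference of 11.2 percentage points had a two-sided exact permutation p of 0.1, the smallest that 3 against 3 libraries allow, and 0.686 after adjustment over the 32 tests of shares in 4 gene pairs. IL-2 at 90 min (63.9% ± 2.86) and IL-2-REH at 90 min (64.4% ± 2.30) and 4 hr (65.3% ± 6.33) had higher means than unstimulated cells, by 7.95, 8.50 and 9.37 percentage points, but their ranges overlapped the unstimulated range, in which replicate 1 was highest (unpaired exact p = 0.2 each). Compared with the unstimulated library of the same number, the share was higher in 3 of 3 pairs in each of the 4 comparisons. All 4 share the same 3 unstimulated libraries, so they are not separate checks. In replicate 1 the share was 63.2% unstimulated and 63.8% after IL-2-REH for 4 hr. The cytokines differed by 0.549 percentage points at 90 min and by −1.85 at 4 hr (IL-2-REH minus IL-2), less than the spread between replicates.

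**Figure D3:**
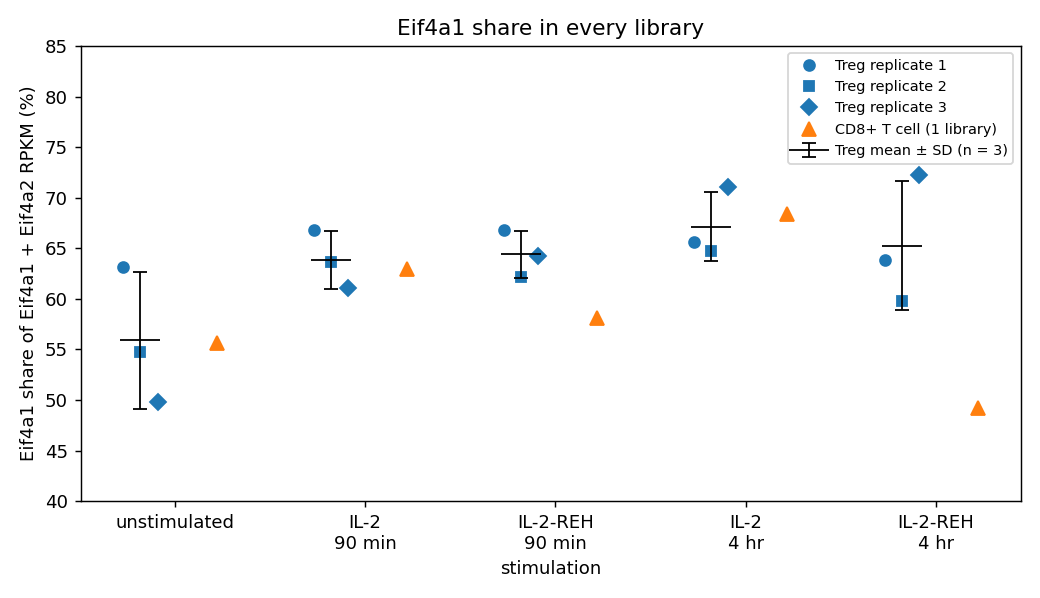
Share of Eif4a1 in the summed RPKM of Eif4a1 and Eif4a2 in percent, in every library by stimulation; the axis starts at 40%, blue symbols are Treg replicates with mean ± standard deviation (n = 3), and triangles are CD8+ libraries. Unstimulated Tregs span 49.8% to 63.2% and Tregs given IL-2 for 4 hr span 64.7% to 71.0%, while the CD8+ library given IL-2-REH for 4 hr is at 49.2%.

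Eif4e, which encodes the cap-binding subunit, measured 19.7, 15.8 and 16.5 RPKM in unstimulated Tregs, 19.2, 21.1 and 21.7 after IL-2 for 90 min and 14.3, 19.2 and 7.80 after IL-2 for 4 hr. IL-2-REH gave 19.8, 19.8 and 20.7 RPKM at 90 min and 15.3, 19.3 and 15.1 at 4 hr. The value of 7.80 RPKM came from the IL-2 library with the fewest reads, and the log2 fold change of IL-2 at 4 hr was −0.31 (SE 0.25, adjusted p = 0.552).

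Eif4g1, the scaffold gene, measured 41.5, 64.1 and 54.0 RPKM in unstimulated Tregs, 51.1, 51.6 and 53.4 after IL-2 for 90 min and 45.7, 68.6 and 73.1 after IL-2 for 4 hr. Under IL-2-REH the values were 47.7, 52.1 and 55.6 RPKM at 90 min and 37.4, 60.8 and 56.2 at 4 hr. Replicate 1 was the lowest library in every Treg group, and no group stood outside another. IL-2 at 4 hr gave a log2 fold change of 0.33 (SE 0.24, adjusted p = 0.512).

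Eif4h encodes a cofactor of the eIF4A helicase. It measured 85.1, 66.3 and 48.1 RPKM in unstimulated Tregs, 104, 85.4 and 65.1 after IL-2 for 90 min and 81.0, 98.0 and 98.4 after IL-2 for 4 hr. IL-2-REH gave 105, 85.1 and 70.6 RPKM at 90 min and 89.8, 93.9 and 79.3 at 4 hr, and the groups overlapped. Its log2 fold changes over the 4 comparisons with unstimulated cells ran from 0.38 (IL-2-REH at 4 hr) to 0.53 (IL-2 at 4 hr), with adjusted p-values from 0.237 to 0.506. Without replicate 1 of unstimulated Tregs, the library in which Eif4h was highest among the unstimulated ones, it passed in all 4 comparisons, with log2 fold changes from 0.71 to 0.86 and adjusted p-values from 0.0107 to 0.0325. That fit called many more genes of every kind, 1997 for IL-2 at 90 min in place of 128. Its shares of all genes were 12.9% and 12.1% for IL-2 and IL-2-REH at 90 min and 8.87% and 6.93% at 4 hr.

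Eif4e3, which encodes a small cap-binding relative of eIF4E, measured 12.6, 10.6 and 9.99 RPKM in unstimulated Tregs, 15.8, 15.1 and 18.7 after IL-2 for 90 min and 10.3, 9.68 and 5.72 after IL-2 for 4 hr. The libraries at 90 min lay above all others of the IL-2 course. The log2 fold change from 90 min to 4 hr was −1.05 (SE 0.28), with an adjusted p of 0.203 in edgeR and 0.0312 in DESeq2. Eif4g2, which encodes a scaffold relative without an eIF4E site, measured 106, 122 and 129.7 RPKM after IL-2 for 90 min and 69.6, 91.3 and 53.1 at 4 hr, and 101, 119.9 and 120.1 RPKM after IL-2-REH for 90 min and 68.3, 89.9 and 45.9 at 4 hr. The ranges were separate with either cytokine, and the log2 fold changes were −0.85 (SE 0.25, adjusted p = 0.206) and −0.91 (SE 0.25, adjusted p = 0.248), which DESeq2 put at adjusted p-values of 0.0393 and 0.0311.

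The 9 genes for the small-subunit and start codon factors all had a log2 fold change above 0 at 90 min on TMM-scaled counts, with a median of 0.24 for IL-2 and 0.16 for IL-2-REH beside −0.06 and −0.05 over all genes, and none passed the test. On log2(RPKM + 1) 7 and 8 of the 9 were above 0, with medians of 0.10 and 0.04 beside −0.11 and −0.09, and without replicate 1 of unstimulated Tregs the medians on counts were 0.39 and 0.33. At 4 hr 2 were above 0 after IL-2 and 6 after IL-2-REH, with medians of −0.14 and 0.06. Without replicate 3 of IL-2 at 4 hr the count was 7 and the median 0.06, so the direction for IL-2 at 4 hr rested on that library. Among these genes Eif1 measured 565, 406 and 507 RPKM in unstimulated Tregs, 402, 559 and 470.1 after IL-2 for 90 min and 257, 385 and 113 after IL-2 for 4 hr. With IL-2-REH the values were 419.9, 542 and 515 RPKM at 90 min and 275, 389.8 and 466 at 4 hr. In RPKM all libraries given IL-2 for 4 hr were below all unstimulated ones, with replicate 3 far below the others. On TMM-scaled counts these groups overlapped. The log2 fold change of Eif1 after IL-2 for 4 hr was −0.97 (SE 0.36, adjusted p = 0.183), and −0.65 (adjusted p = 0.480) without replicate 3 of IL-2. Eif2s1, the gene of the eIF2 alpha subunit, measured 17.1, 19.1 and 17.8 RPKM in unstimulated Tregs, 21.8, 18.4 and 17.97 after IL-2 for 90 min and 16.8, 21.0 and 11.5 after IL-2 for 4 hr. After IL-2-REH it was at 21.7, 16.9 and 16.4 RPKM at 90 min and 18.9, 19.0 and 16.6 at 4 hr. Its log2 fold change stayed between −0.08 and 0.24 in the 4 comparisons with unstimulated cells (SE 0.16 each).

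Eif5, whose product triggers GTP hydrolysis on eIF2, measured 85.9, 90.1 and 109 RPKM after IL-2 for 90 min and 56.7, 75.8 and 38.9 at 4 hr. The log2 fold change between the times was −0.85 (SE 0.25, adjusted p = 0.206, and 0.0352 in DESeq2). Of the 52 genes with at least 1 RPKM, 10 were lower in all libraries given IL-2 for 4 hr than in all given it for 90 min and 0 were higher, beside 10.4% and 7.97% of all genes. They were Eif1, Eif2a, Eif2ak3, Eif3e, Eif3j1, Eif3j2, Eif3m, Eif4e3, Eif4g2 and Eif5, and Eif3j1 and Eif3j2 had identical reads in every library and count as 1 measurement. On the TMM scale 17 were lower and 1 higher (all genes 15.9% and 9.92%). With IL-2-REH 8 were lower and 0 higher (all genes 8.4% and 12.3%), and 12 and 0 on the TMM scale (15.8% and 10.7%).

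The kinase gene Eif2ak3, which encodes PERK, the sensor of unfolded protein in the endoplasmic reticulum, measured 13.9, 6.54 and 6.55 RPKM in unstimulated Tregs. It measured 8.27, 12.4 and 15.4 RPKM after IL-2 and 10.1, 15.6 and 21.1 after IL-2-REH for 90 min, and 5.24, 6.46 and 7.98 RPKM after IL-2 and 6.26, 8.27 and 5.62 after IL-2-REH for 4 hr. Replicates 2 and 3 were higher at 90 min than before and after, and replicate 1 was highest when unstimulated. IL-2-REH at 90 min gave a log2 fold change of 0.93 (SE 0.42, adjusted p = 0.432), and without unstimulated replicate 1 it was 1.51 (adjusted p = 0.0305). The fit without that library called 12.1% of all genes in this comparison. The other kinase genes had log2 fold changes between −0.43 and 0.30 in the 4 comparisons with unstimulated cells, and none passed.

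In the eIF3 complex, the scaffold of the small-subunit complex, Eif3i was the gene nearest to a call. It measured 58.0, 72.8 and 66.6 RPKM in unstimulated Tregs, 51.7, 56.8 and 42.7 after IL-2 for 90 min and 43.6, 47.6 and 31.8 after IL-2 for 4 hr. The IL-2-REH libraries held 60.6, 56.1 and 49.6 RPKM at 90 min and 48.6, 47.0 and 51.3 at 4 hr. At 4 hr all libraries given either cytokine lay below the unstimulated ones. IL-2 at 4 hr gave a log2 fold change of −0.62 (SE 0.16), lower in 3 of 3 pairs, with an adjusted p of 0.0566. Paired by replicate number it passed, at 0.0419. Without replicate 3 of the IL-2 group it was −0.52 with an adjusted p of 0.164. IL-2-REH at 4 hr gave −0.41 (SE 0.16, adjusted p = 0.254).

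The 14 eIF3 genes include Eif3j1 and Eif3j2, which had identical reads and count as 1 measurement. Of the 14 eIF3 genes, 12 had a log2 fold change above 0 after IL-2 for 90 min on TMM-scaled counts, with a median of 0.12 beside −0.06 over all genes, but on log2(RPKM + 1) 6 did, with a median of −0.01 beside −0.11. After IL-2 for 4 hr 5 were above 0 on either scale, with a median of −0.29 on counts beside 0.00. Without replicate 3 of IL-2 the latter count was again 5 and the median −0.19. After IL-2-REH 12 were above 0 at 90 min (8 on log2(RPKM + 1)) and 6 at 4 hr, with medians of 0.16 and −0.04. Without replicate 1 of unstimulated Tregs the medians at 90 min were 0.20 for IL-2 and 0.24 for IL-2-REH, and at 4 hr 9 were above 0 after IL-2-REH with a median of 0.06, so that direction turned with this library. None passed the test. Eif3e, which measured 130.04, 147 and 145 RPKM in unstimulated Tregs, stood at −0.87 after IL-2 for 4 hr (SE 0.29, adjusted p = 0.145) and at −0.54 (adjusted p = 0.296) without replicate 3. That replicate split the complex. In it Eif3a measured 128 RPKM and Eif3b 107, where the other 14 Treg libraries held 47.1 to 81.0 and 42.2 to 61.6, and Eif3e measured 33.2 RPKM and Eif3l 20.8, where the others held 87.6 to 147 and 36.2 to 53.9. This library had the fewest reads of all, and whether depth or RNA quality had a part was not tested.

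Among the highest expressed eIF3 genes, Eif3h measured 183, 179.6 and 169.8 RPKM in unstimulated Tregs, 179.8, 188 and 157 after IL-2 for 90 min and 136, 157 and 109 after IL-2 for 4 hr. IL-2-REH gave 201, 177 and 169 RPKM at 90 min and 175, 161.05 and 175 at 4 hr. Only the IL-2 libraries at 4 hr lay below all unstimulated ones. Eif3f measured 176, 196 and 154 RPKM in unstimulated Tregs, 178, 184 and 128 after IL-2 for 90 min and 134, 159.9 and 100.1 after IL-2 for 4 hr. Under IL-2-REH the values were 186, 185 and 150.0 RPKM at 90 min and 159.5, 169 and 211 at 4 hr, and its groups overlapped.

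Eif6 encodes a factor that keeps the large ribosomal subunit from joining too early and has a role in ribosome assembly. It measured 30.9, 27.3 and 19.6 RPKM in unstimulated Tregs, 40.4, 26.3 and 20.4 after IL-2 for 90 min and 36.0, 38.5 and 65.5 after IL-2 for 4 hr. With IL-2-REH the values were 42.7, 25.9 and 23.4 RPKM at 90 min and 37.4, 32.9 and 40.7 at 4 hr. At 4 hr every library given either cytokine lay above the unstimulated ones in RPKM. On TMM-scaled counts that held for IL-2 and not for IL-2-REH. The log2 fold change of IL-2 at 4 hr was 0.93 (SE 0.30), with an adjusted p of 0.127 in edgeR and 0.0464 in DESeq2. Without replicate 3 of IL-2 it was 0.52 (adjusted p = 0.469), and without replicate 1 of unstimulated Tregs 1.18 (adjusted p = 0.0381), where 8.87% of all genes were called. Eif2a, the gene of a factor that can deliver initiator tRNA without eIF2, measured 15.4, 19.2 and 21.4 RPKM in unstimulated Tregs and 11.9, 13.7 and 6.10 after IL-2 for 4 hr. Its log2 fold change was −0.77 (SE 0.24), with an adjusted p of 0.120 in edgeR and 0.0470 in DESeq2, and it was −0.54 (adjusted p = 0.330) without replicate 3 of IL-2.

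Of the remaining genes, the 5 for eIF2B had log2 fold changes from −0.78 to 0.45 in the 4 comparisons with unstimulated cells, and Eif2d, another gene for a noncanonical tRNA factor, from −0.12 to 0.13. Eif4a3, whose product is a helicase of the exon junction complex, lay between 0.26 and 0.32, and Eif4enif1, the gene of the transporter of eIF4E, lay between −0.28 and 0.07. Eif5b, whose product joins the ribosomal subunits, measured 16.9, 14.7 and 14.8 RPKM in unstimulated Tregs and 12.7, 18.8 and 40.4 after IL-2-REH for 4 hr, a log2 fold change of 0.64 that was −0.04 without replicate 3 of IL-2-REH. Its log2 fold change after IL-2 for 4 hr was 0.44, and 0.07 without replicate 3 of IL-2. None of these genes passed the test.

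The inhibitors of eIF4E were unequal in level. Eif4ebp2 measured 47.7, 67.4 and 47.1 RPKM in unstimulated Tregs, 59.2, 43.6 and 33.96 after IL-2 for 90 min and 54.5, 63.8 and 33.04 after IL-2 for 4 hr. After IL-2-REH it was at 54.3, 49.8 and 38.1 RPKM at 90 min and 59.4, 69.1 and 35.8 at 4 hr, and no group stood apart. Eif4ebp1 measured 3.41, 4.08 and 3.45 RPKM in unstimulated Tregs, 5.34, 1.83 and 2.37 after IL-2 for 90 min and 6.78, 5.48 and 2.01 after IL-2 for 4 hr. The IL-2-REH libraries held 5.83, 2.23 and 2.76 RPKM at 90 min and 8.39, 4.85 and 5.08 at 4 hr, the last group lying above all unstimulated libraries. The log2 fold change of Eif4ebp1 with IL-2-REH at 4 hr was 0.76 (SE 0.44, adjusted p = 0.496), and Eif4ebp1 held 4.03% to 12.4% of the summed RPKM of the pair in Tregs.

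**Figure D4:**
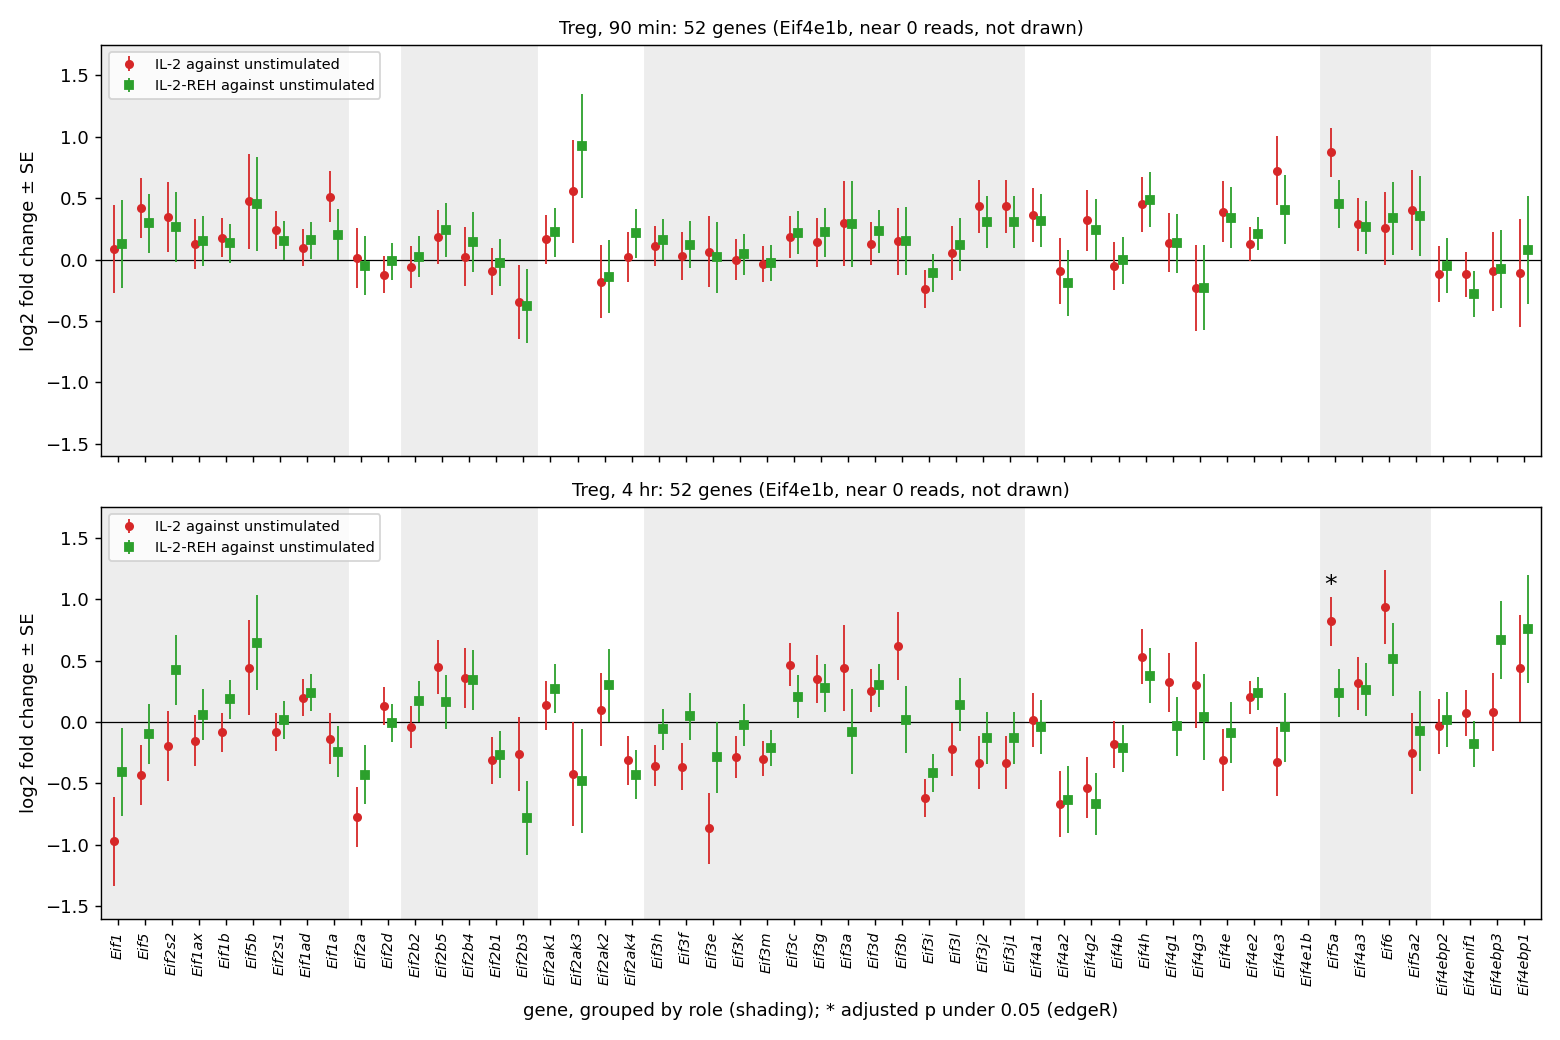
Log2 fold change ± SE against unstimulated Tregs at 90 min (top) and 4 hr (bottom) for 52 genes in order of role, from read counts of 3 libraries per group; circles are IL-2 and squares IL-2-REH, and the star marks an adjusted p under 0.05. Eif5a after IL-2 for 4 hr, at 0.82, carries the only star, and Eif1 at −0.97 and Eif3e at −0.87 have larger errors.

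The partial agonist was compared directly with IL-2 at each time, at the same dose, in 53 genes. In the unpaired fit no gene of the 53 passed at either time, and the adjusted p of each was above 0.999. Paired by replicate number, none of the 53 passed either, where 2 and 10 of 15009 genes were called at 90 min and 4 hr. The values and intervals that follow are from the unpaired fit. Eif5a had the lowest unadjusted p of the 53 genes at both times. It was lower with IL-2-REH than with IL-2 by a log2 fold change of −0.42 (95% interval −0.84 to −0.0037) at 90 min and of −0.58 (−1.0003 to −0.16) at 4 hr, and lower in 3 of 3 same-numbered pairs at each time. At 90 min the RPKM ranges of Eif5a and Eif1a were separate and lower with IL-2-REH, 2 of 52 genes beside 3.44% of all genes, and 0 were higher (2.51%). At 4 hr those of Eif2b3 were lower and those of Eif2b2, Eif3e, Eif3h and Eif3m higher, beside 2.4% and 6.31% of all genes. On the TMM scale 1 was lower (Eif1a) and 0 higher at 90 min (all genes 3.27% and 2.45%), and at 4 hr 4 were lower (Eif2b3, Eif3c, Eif4enif1 and Eif5a) and 3 higher (Eif3e, Eif3f and Eif3h), beside 4.19% and 4.54%.

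These intervals, which do not use the pairing by replicate number, leave room for differences of moderate size. For Eif4e the 95% interval of IL-2-REH against IL-2 at 4 hr ran from −0.31 to 0.76 on the log2 scale, for Eif4a1 from −0.53 to 0.41, and for Eif2s1 from −0.24 to 0.44. Eif3b was lower with IL-2-REH by −0.60 and Eif2s2 higher by 0.61, with intervals from −1.19 to −0.0026 and from 0.0031 to 1.23, and both turned on replicate 3, in which Eif3b measured 107 RPKM under IL-2 against 55.7 under IL-2-REH, and Eif2s2 16.5 against 62.6. Without replicate 3 Eif3b stood at −0.22 and Eif2s2 at −0.004 on the log2 scale. For Eif5a the cytokine difference changed between 90 min and 4 hr by a log2 value of −0.16 (SE 0.28).

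In CD8+ T cells each condition had 1 library, so the log2 ratios of RPKM + 1 below carry no test. Cish, a target of STAT5, measured 1.87 RPKM without cytokine, 30.6 and 26.1 after IL-2 for 90 min and 4 hr, and 2.47 and 2.45 after IL-2-REH. The summed RPKM of 8 IL-2 response genes, Cish among them, was 176 without cytokine and 375 and 425 after IL-2. After IL-2-REH the sum was below that of unstimulated cells, with 141 at 90 min and 116 at 4 hr. Eif5a measured 201 RPKM without cytokine, 232 after IL-2 at both 90 min and 4 hr, and 124 and 99.2 after IL-2-REH at 90 min and 4 hr. The 2 libraries given IL-2-REH were the lowest, so that Eif5a was lower with IL-2-REH than with IL-2 by −0.89 at 90 min and −1.22 at 4 hr. Against unstimulated cells IL-2-REH gave −0.69 and −1.01, whereas in Tregs the same comparisons were above 0.

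Eif4e3 differed most between the cytokines at 4 hr in CD8+ T cells. It measured 3.97 RPKM without cytokine, 8.13 and 8.12 after IL-2 at 90 min and 4 hr, and 4.32 and 1.94 after IL-2-REH. The log2 ratio of IL-2-REH to IL-2 at 4 hr was −1.63, from 353 reads in the lower library. Eif4e3 and Eif5a were the 2 of 52 genes past an absolute log2 ratio of 1 in this comparison, where 2.23% of all genes were past it. The corresponding counts were 1 for IL-2-REH at 90 min (Eif2ak3, all genes 8.57%), 1 for IL-2-REH at 4 hr (Eif5a, 6.11%), and 0 for IL-2 at 90 min (7.24%), IL-2 at 4 hr (4.71%) and IL-2-REH against IL-2 at 90 min (0.868%). Past an absolute log2 ratio of 0.5 the counts were 4, 6, 5 and 7 for IL-2 at 90 min, IL-2-REH at 90 min, IL-2 at 4 hr and IL-2-REH at 4 hr, beside 31.6%, 35.2%, 20.8% and 29.2% of all genes. Between the cytokines they were 2 at 90 min and 5 at 4 hr, beside 3.99% and 12.7%.

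Next lowest for IL-2-REH against IL-2 at 4 hr were Eif4a1, Eif1a and Eif3b. Eif4a1 measured 201 RPKM without cytokine, 230.1 and 234 after IL-2 and 198 and 139 after IL-2-REH at 90 min and 4 hr, a log2 ratio of −0.75 at 4 hr. Eif1a measured 9.36, then 10.4 and 12.7 with IL-2 and 9.29 and 7.73 with IL-2-REH, a ratio of −0.65. Eif3b measured 51.5, then 53.2 and 53.3 with IL-2 and 49.4 and 35.1 with IL-2-REH, a ratio of −0.59. Each of these was lowest in the library given IL-2-REH for 4 hr.

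Highest in the same comparison were Eif2ak3 (0.41), Eif4a2 (0.40), Eif3e (0.30), Eif4ebp2 (0.24) and Eif5a2 (0.20). Eif2ak3 measured 6.39 RPKM without cytokine, 10.9 and 15.6 at 90 min with IL-2 and IL-2-REH, and 6.02 and 8.34 at 4 hr. With either cytokine it was higher at 90 min than before and after, as in Treg replicates 2 and 3. In Treg replicate 1 it was also higher at 90 min than at 4 hr, but highest when unstimulated. Eif4ebp2 measured 61.3, then 48.8 and 47.4 at 90 min and 53.8 and 63.6 at 4 hr, and Eif5a2 stayed between 1.45 and 1.82 RPKM. The Eif4a1 share of its pair was 55.6% without cytokine, 62.9% and 68.4% with IL-2 and 58.1% and 49.2% with IL-2-REH.

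After IL-2 for 4 hr, the highest log2 ratios against unstimulated CD8+ T cells were those of Eif4e3 (0.88), Eif1a (0.41), Eif4e (0.30), Eif4e2 (0.28) and Eif4ebp3 (0.25). Eif4e measured 11.8 RPKM without cytokine, 15.3 and 14.8 with IL-2 and 14.1 and 10.9 with IL-2-REH, and Eif4e2 measured 14.9, then 18.8 and 18.3 with IL-2 and 17.9 and 17.6 with IL-2-REH. Eif4ebp3 measured 10.1, then 10.5 and 12.2 with IL-2 and 10.7 and 12.8 with IL-2-REH. The lowest ratios were those of Eif1 (−0.89), Eif2a (−0.57), Eif4a2 (−0.56), Eif3i (−0.52) and Eif3e (−0.44).

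Eif1 measured 390.3 RPKM in unstimulated CD8+ T cells, 252 and 211 with IL-2 and 234 and 212 with IL-2-REH at 90 min and 4 hr. Eif3i measured 97.0, then 72.4 and 67.5 with IL-2 and 64.8 and 57.2 with IL-2-REH, and Eif2a measured 25.4, then 20.1 and 16.8 with IL-2 and 18.5 and 18.8 with IL-2-REH. These 3 genes were highest in the unstimulated library and lower under either cytokine. Eif4a2 measured 159.9, then 136 and 108 with IL-2 and 142 and 143 with IL-2-REH, and Eif3e measured 187, then 180.4 and 138 with IL-2 and 175 and 170.2 with IL-2-REH, each lowest after IL-2 for 4 hr. Over the 5 CD8+ libraries Eif4g1 lay between 52.9 and 69.3 RPKM, Eif2s1 between 17.2 and 22.4, Eif6 between 22.002 and 30.02, Eif3h between 174 and 230.4, Eif3f between 143 and 189, and Eif4ebp1 between 2.74 and 3.93. The log2 ratio to unstimulated cells after IL-2 for 4 hr was −0.41 for Eif3h and −0.40 for Eif3f.

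**Figure D5:**
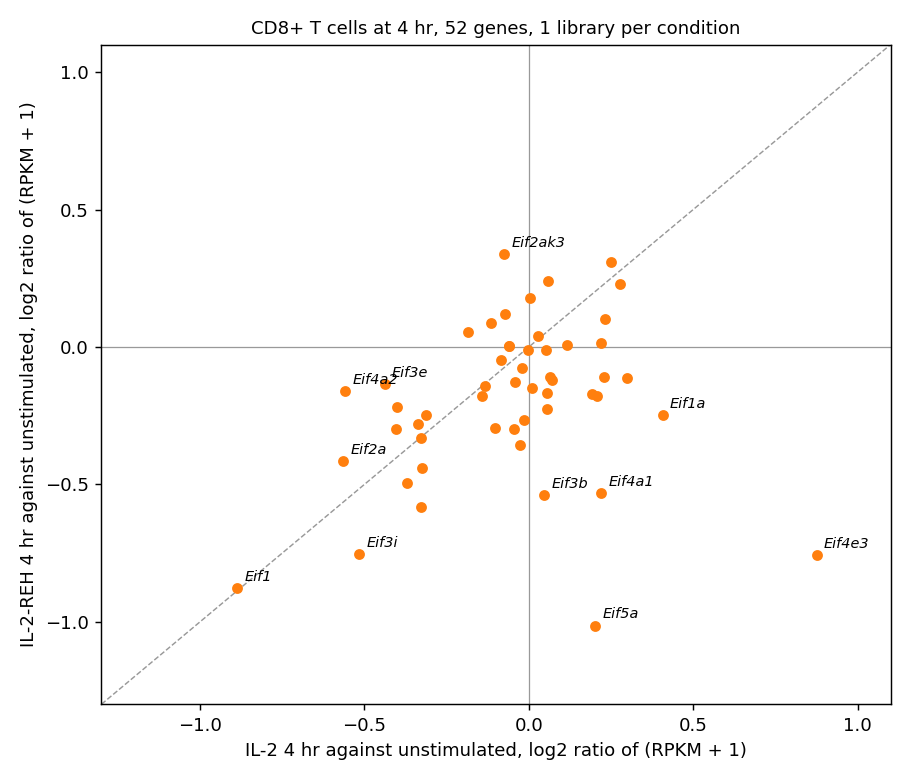
Log2 ratio of RPKM + 1 against the unstimulated CD8+ library at 4 hr for 52 genes, with IL-2 on the x axis and IL-2-REH on the y axis; each point is a gene measured in 1 library per condition, and the dashed line marks equal ratios. Eif5a and Eif4e3 lie farthest below the line, with differences of −1.22 and −1.63, and Eif1 lies close to it, at −0.89 and −0.88.

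Levels in the cell types overlapped for nearly all genes. Eif4b, which encodes a helicase cofactor, was the 1 of 52 genes whose 5 CD8+ values, 116 to 145 RPKM, were all above the 15 Treg values, 72.3 to 110.3 RPKM, where 2.74% of all genes were so placed. None had all CD8+ values below all Treg values, against 7.24% of all genes. Without replicate 3 of Tregs given IL-2 for 4 hr, 1 gene, Eif4e3, was lower in all CD8+ libraries, with 1.94 to 8.13 RPKM in CD8+ T cells and 8.56 to 18.7 RPKM in those 14 Treg libraries, beside 8.38% of all genes, and Eif4b still was the only gene above, beside 2.81%. Since the cell types came from different mice and isolations, cell type and source cannot be told apart.

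Beyond the initiation factors themselves, 44 genes that act with them were followed in Tregs, and all 44 were tested. They were partners of eIF4F, factors of reinitiation, elongation and termination, genes of mTORC1 control and of the integrated stress response, and the hypusine enzymes. After IL-2 for 90 min 1 rose (Trib3) and 1 fell (Ddit4), after IL-2 for 4 hr 1 rose (Trib3), and none passed in the other comparisons. Of all genes 0.78% were called higher and 0.0733% lower after IL-2 for 90 min. Trib3, a pseudokinase gene switched on by the stress factor Atf4, measured 1.41, 1.29 and 1.24 RPKM in unstimulated Tregs, 11.6, 4.59 and 3.90 after IL-2 for 90 min and 14.99, 10.9 and 11.8 after IL-2 for 4 hr. IL-2-REH gave 6.17, 1.74 and 2.02 RPKM at 90 min and 7.01, 3.62 and 4.96 at 4 hr. All stimulated libraries lay above all unstimulated ones.

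Trib3 rose by a log2 fold change of 2.41 (SE 0.45, adjusted p = 0.0217) after IL-2 for 90 min and of 3.33 (SE 0.47, adjusted p = 0.00280) after IL-2 for 4 hr, each in 3 of 3 pairs. IL-2-REH at 4 hr gave 1.99 (SE 0.44, adjusted p = 0.0811, and 0.00142 when paired by replicate number, where 3.03% of all genes were called). The call at 90 min was lost without unstimulated replicate 2 or 3 (adjusted p = 0.138 and 0.146). Ddit4, whose product inhibits mTORC1, measured 20.5, 69.0 and 41.5 RPKM in unstimulated Tregs and 16.0, 10.97 and 7.59 after IL-2 for 90 min. It fell by 1.76 on the log2 scale (SE 0.37, adjusted p = 0.0400), and the call was lost without unstimulated replicate 2 or 3 (adjusted p = 0.216 and 0.153). After IL-2 for 4 hr Ddit4 stood at −1.23 (adjusted p = 0.100005, and 0.0387 when paired, where 6.92% of all genes were called).

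In the paired fit Ppp1r15a, whose product helps remove the phosphate from eIF2 alpha, was also called. It measured 144, 174 and 314 RPKM in unstimulated Tregs, 35.2, 106 and 103 after IL-2 for 4 hr and 41.3, 116 and 114 after IL-2-REH for 4 hr, with paired log2 fold changes of −1.44 (adjusted p = 0.00558) and −1.34 (adjusted p = 0.0146). Unpaired, the adjusted p-values were 0.206 and 0.324. Pairing further called Larp1 for IL-2 at 4 hr (0.65, adjusted p = 0.0358) and Ddit3 for IL-2-REH at 4 hr (0.74, adjusted p = 0.0413). The paired fit called 6.92% of all genes for IL-2 at 4 hr and 3.03% for IL-2-REH at 4 hr, against 2.27% and 0.313% in the unpaired fit.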

How the data were processed

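Libraries were made with the Kapa mRNA HyperPrep kit and sequenced as single-end reads of 50 bases. Per the labels and the methods of the study, the authors aligned reads to mm10 with TopHat2 2.1.1 and Bowtie2 2.2.6, counted uniquely mapped reads on exons, and deposited for each sample a read count and an RPKM value for every transcript. The submitters' processing notes also name SAMtools 0.1.8, bedtools 2.25.0 and edgeR. Whether counting used the strand is not given in the sources used here, and multimapping reads are absent, so genes with close copies are uncertain. Eif3j1 and Eif3j2 had identical reads in every library and count as 1 measurement, though both stand among the 14 eIF3 genes. The files list 31682 transcripts of 23992 symbols, and for each symbol the transcript with most reads over the 20 libraries was used.

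Treg counts were tested with edgeR 4.0.16 (R 4.3.3), with TMM normalization, filterByExpr and the quasi-likelihood test, on 1 fit of group means over 15 libraries and 15009 genes, with the Benjamini-Hochberg adjustment taken over all genes. All 53 genes passed the filter on low counts, which read all Treg groups together. CD8+ libraries were compared as log2 ratios of RPKM + 1 without a test, among genes with a mean of at least 1 RPKM. Shares within gene pairs were compared by two-sided exact permutation tests (scipy 1.17.1). Alternatives used DESeq2 1.42.0, limma 3.58.1 on log2 RPKM, other normalizations and filters, a replicate block and left-out libraries. The steps were tested on simulated data with known changes. Same-numbered libraries deviated together in 24 of 24 pairs of libraries (correlations 0.121 to 0.839), so the numbers from the titles were taken to pair the libraries. These pairs reuse the same 15 libraries, and the lowest correlation was that of replicate 3 between IL-2 at 4 hr and unstimulated Tregs.

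Values in every library are given for genes called in the unpaired or paired fit, for a fixed set of eIF4F, 4E-BP, eIF2, eIF5A and eIF6 genes, for the 5 highest expressed genes, and for the 5 highest and 5 lowest CD8+ ratios of IL-2 at 4 hr and of IL-2-REH against IL-2 at 4 hr. Eif2ak3 in Tregs, Eif4b, Eif4g2, Eif4g3, Eif4h, Eif5, Eif3a, Eif3l and the genes without overlap between groups were named after their values were seen. The members and lists were chosen with earlier results of these data known. Promoter windows are from RefSeq (GRCm38.p6). Intervals cover the spread between libraries, and at these depths (20201392 to 63903764 reads on genes in Tregs) counting error is small for most genes. It is larger for Eif4e1b, and for Eif4ebp1, Eif2b3 and Eif5a2, with 65, 158 and 174 reads in their lowest libraries.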

Additional observations from a re-analysis of the deposited data

Results flagged for a closer look

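Eif5a had values of opposite sign in the cell types after IL-2-REH for 90 min. In CD8+ T cells, with 1 library per condition, its log2 ratio against unstimulated cells was −0.69, from 201 to 124 RPKM, whereas the same-numbered Treg pairs gave 0.50, 0.16 and 0.25 on the same scale of RPKM + 1. The Treg change was not called (log2 fold change 0.45, adjusted p = 0.418 in edgeR), and the difference between the cell types was not tested, since CD8+ T cells had no replicates.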

How the results depend on the processing

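Counts of initiation factor genes past the threshold were recomputed under each alternative, and the cause of a shift was not tested unless the alternative removes libraries or genes. Of the recomputed values that answer a comparison, 177 stayed within their limits and 39 moved. The 177 include counts that were 0 and stayed 0, such as those between the cytokines in Tregs. They also include differences in the Eif4a1 share that kept only their sign, so the tally does not measure precision. Pairing by the replicate block gave 1 call (Eif5a) for IL-2 at 90 min and 2 (Eif5a and Eif3i) for IL-2 at 4 hr, in place of 0 and 1, and changed no other call among these genes. DESeq2 gave 1 and 4 in these comparisons, 5 for IL-2 and 1 for IL-2-REH between the times. For IL-2 at 4 hr, limma on log2(RPKM + 1) or log2(RPKM + 0.1), no filter on low counts, and a fit of only the groups compared each gave 0, and a minimum mean of 5 RPKM gave 2. Leaving out replicates gave 0 to 5 calls for IL-2 at 90 min, 0 to 2 for IL-2-REH at 90 min, 0 to 5 for IL-2 at 4 hr, 0 to 2 for IL-2-REH at 4 hr and 0 to 1 for IL-2-REH between the times. The highest of these came without replicate 1, where 17.3%, 15.7% and 13.4% of all genes were called in the first 3 comparisons and 3.96% in the last, and for IL-2-REH at 4 hr without replicate 1 of unstimulated Tregs (6.93%). The difference of Eif2s2 between the cytokines at 4 hr reversed, to −0.004023 on the log2 scale, without replicate 3, and over the left-out replicates it ran up to 0.971.

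In CD8+ T cells, RPKM + 0.1 gave 1 gene past a log2 ratio of 1 for IL-2 at 90 min and 1 at 4 hr, and centring libraries on medians gave 0 for IL-2-REH at 4 hr. A limit of 0.5 gave 4, 6, 5 and 7 genes against unstimulated cells (IL-2 and IL-2-REH at 90 min, then at 4 hr) and 2 and 5 between the cytokines. On TMM-normalized counts 2 genes (Eif3l and Eif4b) were above all Tregs in CD8+ T cells, and leaving out Treg replicates gave 0 to 3 genes below, with 1 without replicate 3 of IL-2 at 4 hr. With 3 libraries per group the precision is that of the standard errors and intervals given, and the single CD8+ libraries allow no error estimate.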
